A study of Mus musculus with 12 samples.

Results

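The constitutive proteasome subunits were taken as all genes on the array whose symbol begins with Psma, Psmb, Psmc or Psmd and ends in a number, apart from the immunoproteasome genes Psmb8, Psmb9 and Psmb10. Probe sets with exactly 1 annotated symbol were used, and the probe sets of a gene were averaged. This gave 35 of the 21314 genes measured. The core held 15 of them, 7 Psma and 8 Psmb genes, and the regulatory particle 20, 6 Psmc and 14 Psmd genes. Psma4, the remaining subunit of the outer core ring, has only probe sets annotated to several symbols and was not a member. The rule also took in genes that its name does not cover: Psma8 is a subunit of the testis, Psmb11 one of the thymus, and Psmd5, Psmd9 and Psmd10 encode chaperones that help to assemble the regulatory particle and are not part of the finished complex.

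The proteasome degrades proteins that carry ubiquitin chains. Its core is a barrel of stacked rings: the outer rings of Psma subunits form the gate, and the inner rings of Psmb subunits hold the proteolytic sites of Psmb5, Psmb6 and Psmb7. The regulatory particle caps the barrel. Its base holds the Psmc ATPases, which unfold the substrate, and the large subunits Psmd1 and Psmd2, and its lid holds Psmd14, which removes the ubiquitin. In inflamed intestine, interferon signals replace the proteolytic subunits of part of the proteasomes by those of the immunoproteasome, and the transcription factor Nfe2l1 raises subunit genes together when proteasome activity falls short.

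Each of 12 mice, 6 to 8 weeks old, gave 1 Affymetrix array of whole colon RNA, and the mice fell into 4 groups of 3. Wild-type mice drank water or 4% dextran sulfate sodium (DSS), a polysaccharide that injures the colon lining, for 7 days, and mice lacking Parp1 (Parp1-/-), an enzyme of DNA damage signalling, drank the same. The animal facility was conventional and screened for mouse pathogens, and strain, sex and the making of the Parp1 allele were not given in the sources used here. Deposited values are log2 values centred so that each probe set has its median over all arrays at 0, with base 2 and larger values for more RNA assumed because neither is stated. A value of 0 is thus a gene's own median, genes cannot be compared in level, and the colon label could not be checked against levels of marker genes. The number of arrays limits the precision.

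A block of 4 arrays stood apart from the other 8, namely all 3 wild-type water arrays together with array 1 of wild-type DSS. The mean of 16 housekeeping genes was -1.85 to -1.02 in these 4 and 0.02 to 0.42 in the other 8. The mean of 12 colon epithelium genes was -1.54 to -0.72 against -0.04 to 0.28, and the median of 1056 odorant and pheromone receptor genes was 0.38 to 0.42 against -0.12 to 0.05. In 3 arrays, Parp1-/- water 2 and 3 and Parp1-/- DSS 1, the mean of 12 smooth muscle genes was 2.73 to 2.76, against -0.56 to 0.01 in the other 9. Each comparison with wild-type water holds the first of these differences, and its part in the results on the proteasome was not tested. In whole tissue, fewer cells of a type and less RNA per cell cannot be told apart. Parp1 was at -0.41, 1.15 and 0.53 on wild-type water arrays and 0.01, 0.51 and 0.77 on wild-type DSS arrays, against -0.22 to 0.03 in the 6 Parp1-/- arrays, so that the arrays labelled wild-type water 1 and wild-type DSS 1 were not above the Parp1-/- arrays. Whether its probes lie in the altered stretch of the gene was not given in the sources used here.

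Most proteasome genes were low on those same 4 arrays. The mean of the 35 genes was -1.21, -0.64 and -0.78 on wild-type water arrays, -1.05, -0.14 and 0.29 on wild-type DSS arrays, 0.13, 0.56 and 0.58 on Parp1-/- water arrays, and 0.25, -0.16 and 0.08 on Parp1-/- DSS arrays. Wild-type DSS 1 lay among the wild-type water arrays, and the highest means were in Parp1-/- water 2 and 3. Of the 35 genes, 21, 12 and 13 were below -1 on the wild-type water arrays, 18 on array 1 of wild-type DSS, and 0 on each other array. The SD over the 35 genes within an array was 0.70 to 0.89 on the 4 low arrays and 0.16 to 0.48 on the others, and over all genes it was 0.67 to 0.88 and 0.25 to 0.38, so the wider spread was a trait of the arrays as a whole. In 17 genes, 4 of the core and 13 of the regulatory particle, all 4 low arrays were below the other 8, as in 16.4% of all genes. The opposite order was found in 1 gene, Psma8, and in 15.3% of all genes. Parp1-/- water 2 and 3 were above the other 10 arrays in 21 of the 35 genes, 7 of the core and 14 of the regulatory particle, and in 8.15% of all genes. These are 2 of the 3 arrays with high smooth muscle genes. The third, Parp1-/- DSS 1, was the highest array of 0 of the 35, and the part of muscle tissue in the order was not tested.

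**Figure D1:**
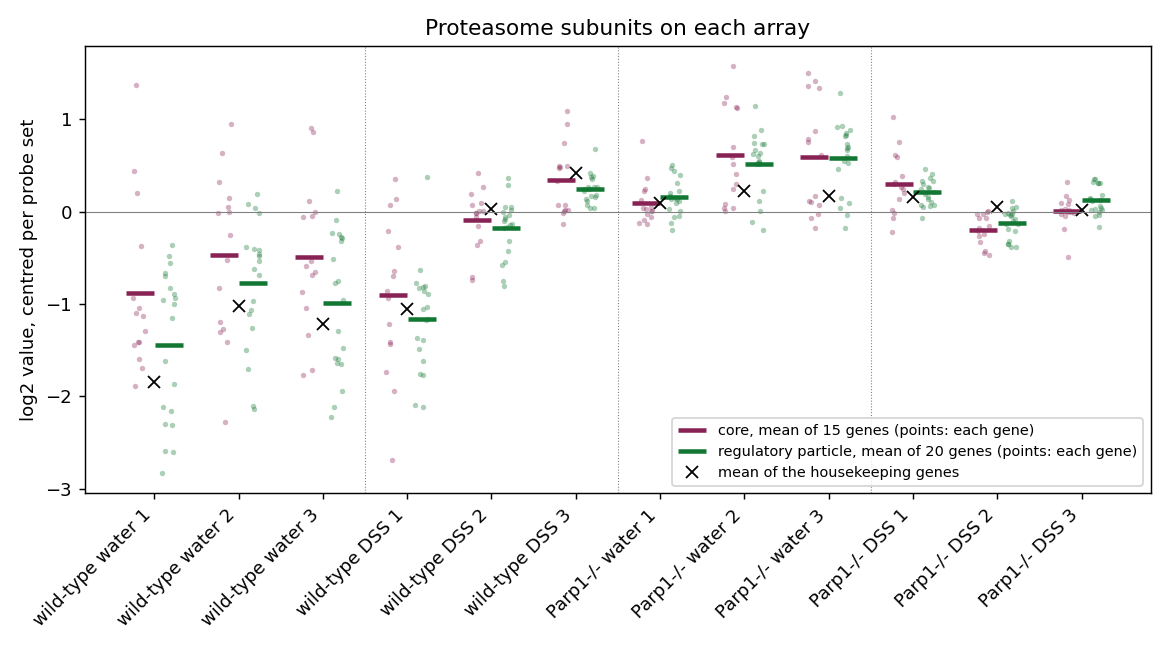
Log2 value, centred per probe set, of each of the 35 proteasome genes on each of the 12 arrays (points), with the mean of the 15 core genes and of the 20 regulatory particle genes (bars) and of 16 housekeeping genes (crosses). Both particles and the housekeeping genes are low in wild-type water 1 to 3 and wild-type DSS 1, and the regulatory particle is the lower of both particles there.

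The regulatory particle was lower than the core on each wild-type water array, while on the Parp1-/- arrays their difference lay on either side of 0. The mean of the 20 regulatory particle genes was -1.07 ± 0.34 (SD, n = 3) on wild-type water arrays, -0.37 ± 0.72 on wild-type DSS arrays, 0.42 ± 0.23 on Parp1-/- water arrays and 0.07 ± 0.18 on Parp1-/- DSS arrays. The mean of the 15 core genes was -0.62 ± 0.24, -0.22 ± 0.63, 0.43 ± 0.29 and 0.04 ± 0.25 in the same order. The wide SD of wild-type DSS comes with the array that lay among the water arrays: its 3 core means were -0.91, -0.09 and 0.34. Core minus regulatory particle was 0.56, 0.31 and 0.49 on wild-type water arrays, 0.26, 0.09 and 0.10 on wild-type DSS arrays, -0.06, 0.10 and 0.01 on Parp1-/- water arrays, and 0.10, -0.07 and -0.12 on Parp1-/- DSS arrays. It was thus 0.26 to 0.56 on the 4 low arrays and -0.12 to 0.10 on the other 8, which is a description of these arrays with no test. Its mean on wild-type water arrays, 0.45, was 0.29 without Psma8, Psmb11 and the 3 chaperones, 0.19 with medians over genes in place of means, and 0.27 after quantile normalization.

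Most classes of subunit were low on the same arrays. Alpha ring genes other than Psma8 averaged -1.13, -0.96 and -0.79 on wild-type water arrays, -1.06, -0.18 and 0.50 on wild-type DSS arrays, 0.15, 0.88 and 0.96 on Parp1-/- water arrays, and 0.42, -0.20 and 0.08 on Parp1-/- DSS arrays. The 3 proteolytic subunits averaged -1.36, -0.72 and -1.15 on wild-type water arrays and -1.17, -0.18 and 0.17 on wild-type DSS arrays, against -0.15 to 0.51 in the 6 Parp1-/- arrays. The lowest values of any class were those of the non-ATPase base subunits Psmd1, Psmd2 and Psmd4 on wild-type water arrays, at -2.11, -1.10 and -1.50. The ATPases, at -1.21, -0.70 and -0.81, and the lid, at -1.35, -0.73 and -1.09, were near the alpha ring and the proteolytic subunits. Their means on wild-type water arrays were -0.91 and -1.06, against -0.96 and -1.08 for those 2 core classes. The core mean there, -0.62, also holds Psmb1 to Psmb4, at -0.36, Psma8, at 1.08, and Psmb11, at 0.13. The mean of the structural beta subunits Psmb1 to Psmb4 departed from the rest: it was -1.06 in wild-type water 1, but 0.00 and -0.02 in wild-type water 2 and 3. These genes differed among themselves on the latter arrays. Psmb1 was at 0.64 and 0.86, Psmb2 at -0.52 and -0.87, Psmb3 at 0.15 and -0.05, and Psmb4 at -0.25 and 0.00.

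**Figure D2:**
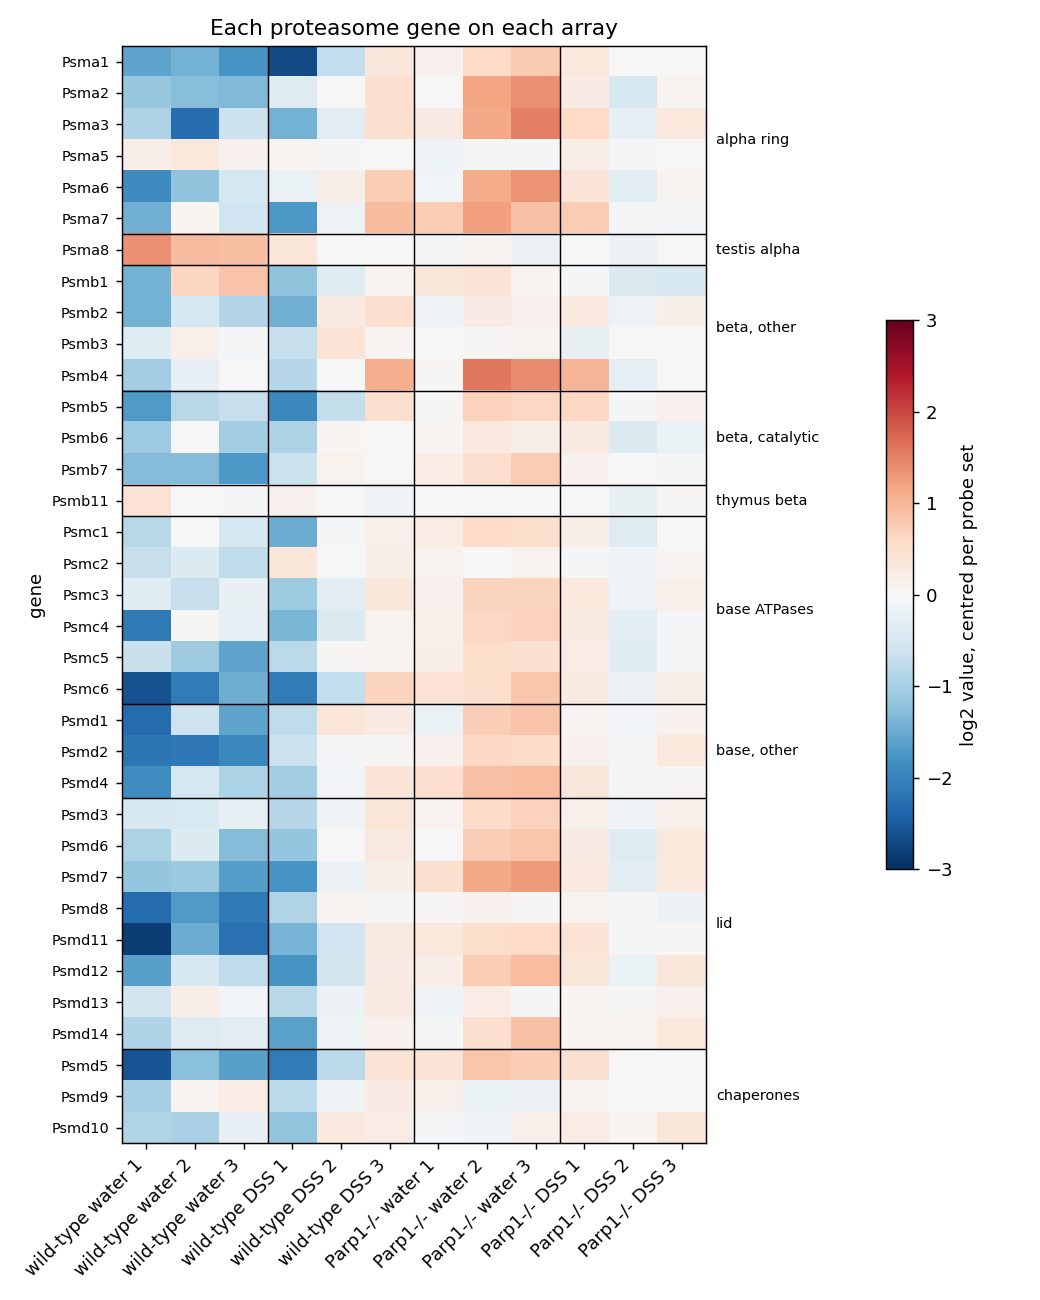
Log2 value, centred per probe set (colour, blue low and red high), of each proteasome gene (rows, by class of subunit) on each of the 12 arrays (columns, by group). Blue fills most rows on wild-type water arrays and wild-type DSS 1, while Psma8 is red on wild-type water arrays, at 0.90 to 1.37, and Psmb11 is pale throughout, at -0.21 to 0.44.

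DSS against water in wild-type mice asked how injury changes these genes in the normal colon. Genes are said to rise, fall or be called where the limma fit over all genes gave an adjusted p under 0.05, and differences are on the log2 scale. Of the 35 genes, 28 were above 0 and 8 rose, 3 of the 15 core genes and 5 of the 20 regulatory particle genes, and 1, Psma8, fell. The median difference was log2 0.51 over the 35, 0.44 over the core and 0.65 over the regulatory particle, and -0.05 over all genes. Of all genes 8.89% were called higher by limma, 4.16% were called lower, and 45.8% were above 0. In 7 of the genes all 3 DSS arrays were above all 3 water arrays, as in 11.4% of all genes, and in 2, Psma5 and Psma8, below them, as in 12.2%. Psma5 is an average of 2 probe sets, and neither separated the groups by itself. Their lowest water values were -0.05 and -0.02, and their highest DSS values 0.09 and 0.13.

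The genes with the largest rises were those of the base and lid. Psmd2, which binds the proteins that shuttle ubiquitinated substrates in, was at -2.16, -2.14 and -1.94 on wild-type water arrays, -0.63, -0.06 and 0.04 on wild-type DSS arrays, 0.13, 0.63 and 0.54 on Parp1-/- water arrays, and 0.14, -0.04 and 0.32 on Parp1-/- DSS arrays. All 3 water arrays of the wild type were far below every other array, and the other 9 lay between -0.63 and 0.63. It rose by 1.86 ± 0.21 (SE, n = 3 in each group; limma adjusted p 0.000304). Psmd8, a lid subunit, was at -2.30, -1.71 and -2.11 on wild-type water arrays and -0.89, 0.05 and 0.03 on wild-type DSS arrays, and between -0.17 and 0.12 in the 6 Parp1-/- arrays. It rose by 1.77 ± 0.25, with a limma adjusted p of 0.00111. Of 8 called genes followed through the 20 alternatives run for this comparison, these were the 2 called under each of them.

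Psmd11, a lid subunit that clasps lid to base, was at -2.83, -1.496 and -2.23 on wild-type water arrays and -1.38, -0.58 and 0.27 on wild-type DSS arrays, and rose by 1.62 ± 0.40 (limma adjusted p 0.0219). Psmd1, the largest scaffold of the base, was at -2.30, -0.62 and -1.59 in water and -0.77, 0.36 and 0.24 in DSS, and rose by 1.45 ± 0.43 (0.0474). Its groups overlapped, because DSS 1 lay below water 2. Psmc2, an ATPase, rose by 0.81 ± 0.15, but its 2 probe sets disagreed: one was at -1.74, -1.18 and -1.48 on wild-type water arrays and the other at 0.34, 0.38 and -0.06, and in wild-type DSS 1 they were at -0.65 and 1.39. The 5 other ATPases were not called, with Psmc6 at 1.33 ± 0.54 and Psmc5 at 0.87 ± 0.29, and Psmc1 at 0.00.

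The stretch of 250 bases before the start of the gene is shown for Psmd2, Psmd8 and Psma2. These genes were called both in wild-type mice and in the difference of the responses described below. Psmb7 was called in both as well and is not shown. The stretch is also given for the neighbours Psmb5 and Psmb11, which lie on opposite strands of chromosome 14 and differed in their values. The sequences are those of RefSeq on GRCm38.p6, at chr16:20651402-20651651 for Psmd2 and chr13:14612992-14613241 for Psma2, both on the plus strand, and chr7:29180674-29180923 for Psmd8 on the minus strand. Psmb5 is at chr14:54617996-54618245 on the minus strand and Psmb11 at chr14:54625060-54625309 on the plus strand. Each is written 5′ to 3′ on the strand of its gene, and capitals mark the motif matches described after them.
Psmd2: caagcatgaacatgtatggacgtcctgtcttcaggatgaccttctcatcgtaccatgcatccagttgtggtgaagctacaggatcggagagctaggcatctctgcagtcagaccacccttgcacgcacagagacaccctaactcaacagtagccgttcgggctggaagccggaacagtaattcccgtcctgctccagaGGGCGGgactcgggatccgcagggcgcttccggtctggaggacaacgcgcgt
Psmd8: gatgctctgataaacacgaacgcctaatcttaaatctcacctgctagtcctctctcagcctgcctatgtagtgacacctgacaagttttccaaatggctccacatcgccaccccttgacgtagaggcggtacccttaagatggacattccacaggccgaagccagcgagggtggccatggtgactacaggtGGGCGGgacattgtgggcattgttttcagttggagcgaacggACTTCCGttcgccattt
Psma2: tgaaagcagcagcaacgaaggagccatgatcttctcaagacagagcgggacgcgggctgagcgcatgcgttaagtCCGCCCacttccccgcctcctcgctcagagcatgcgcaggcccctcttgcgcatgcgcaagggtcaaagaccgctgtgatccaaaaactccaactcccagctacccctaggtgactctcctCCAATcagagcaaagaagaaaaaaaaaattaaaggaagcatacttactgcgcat
Psmb5: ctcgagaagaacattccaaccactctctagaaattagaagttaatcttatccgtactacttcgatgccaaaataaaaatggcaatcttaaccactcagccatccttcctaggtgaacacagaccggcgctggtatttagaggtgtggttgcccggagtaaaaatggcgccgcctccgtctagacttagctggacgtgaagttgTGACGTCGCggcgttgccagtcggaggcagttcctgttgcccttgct
Psmb11: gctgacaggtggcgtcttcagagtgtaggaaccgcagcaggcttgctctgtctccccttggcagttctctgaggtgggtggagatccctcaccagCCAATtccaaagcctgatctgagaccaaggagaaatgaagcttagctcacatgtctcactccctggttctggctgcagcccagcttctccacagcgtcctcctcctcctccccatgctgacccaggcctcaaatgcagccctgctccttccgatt

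A promoter sequence was found for 28 of the 35 genes, in 30 entries, and 7 motifs were searched on both strands. The letters ACTTCCG, the core bound by ETS factors, occurred in 8 of the 30 entries, or 26.7%, among them Psmd8, and in 4.92% of all 32851 promoters. The GC box GGGCGG occurred in 53.3%, among them Psmd2, Psmd8 and Psma2 (in Psma2 on the other strand), and in 32.7% of all. The CCAAT box, with the letters CCAAT, occurred in 40.0%, among them Psma2 and Psmb11, against 33.8%. The letters TGACNNNGC of the antioxidant response element, the site that Nfe2l1 and Nfe2l2 bind, occurred in 5 entries, or 16.7%, against 10.2%, namely those of Psmb5, Psmb6, Psmc6, Psmd9 and Psmd12. Psmb5 thus had such a match and Psmd2 and Psmd8 had none in this window. The TATA box TATAAA occurred in 3 entries against 12.4% of all, the E-box CACGTG in 3.33% against 6.02%, and TGACGTCA, which shares its first letters with TGACNNNGC, in 0 entries against 1.55%. These matches are descriptions of the letters, and the 35 genes lie on 15 chromosomes.

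Core genes were low and high on the same arrays. Psma6, an alpha ring subunit, was at -1.89, -1.20 and -0.54 on wild-type water arrays and -0.21, 0.19 and 0.74 on wild-type DSS arrays, and rose by 1.45 ± 0.42 (limma adjusted p 0.0459). Psma2, its neighbour in the ring, was at -1.13, -1.27 and -1.34 in water and -0.38, -0.01 and 0.50 in DSS, and rose by 1.28 ± 0.34 (0.033). Both groups were separated in each gene, with DSS 1 the nearest to the water arrays. Of the proteolytic subunits, Psmb7, with trypsin-like activity, was at -1.29, -1.30 and -1.72 in water and -0.64, 0.10 and 0.00 in DSS, and rose by 1.26 ± 0.22 (0.00437). Psmb5, with chymotrypsin-like activity, was at -1.69, -0.83 and -0.68 in water and -1.94, -0.71 and 0.48 in DSS, a difference of 0.35 ± 0.50. Psmb6, with caspase-like activity, was at -1.10, -0.02 and -1.04 in water and -0.94, 0.07 and 0.02 in DSS, a difference of 0.44 ± 0.34. Neither was called, and their groups overlapped.

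A few genes had the opposite sign. Psma8, the testis counterpart of Psma7, was at 1.37, 0.95 and 0.90 on wild-type water arrays, 0.35, 0.01 and -0.01 on wild-type DSS arrays, and between -0.18 and 0.08 in the 6 Parp1-/- arrays. It fell, with a difference of -0.96 ± 0.17 and a limma adjusted p of 0.0049, and the 4 low arrays were its highest, as for the median of the receptor genes. Psmb11, the thymus counterpart of Psmb5, was at 0.44, -0.01 and -0.06 in water and 0.13, -0.01 and -0.13 in DSS, a difference of -0.13 ± 0.17. Psma5 was at -0.20 ± 0.14 and Psmb1 at -0.53 ± 0.51, and Psmd13, Psmd9 and Psmc1 were at -0.09, 0.00 and 0.00. The chaperones Psmd5 and Psmd10 were at 1.001 ± 0.52 and 0.48 ± 0.34. None of these last 8 was called.

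Beside these values, 9 of 16 housekeeping genes were called higher in this comparison with a median of 1.21, and 8 of 12 colon epithelium genes with a median of 1.70, so the median of the proteasome genes lay below both. With the housekeeping mean of each array as a covariate the median of the 35 turned to -0.50, with 3 called higher and 8 lower, and over all genes 853 were called higher and 1397 lower, against 1894 and 887 without it. The count of the 35 called higher went to 17 on leaving out wild-type DSS 1, to 4 without DSS 2 or DSS 3 of the wild type, to 5 without its water 1 or water 3, and to 2 after quantile normalization. The calls higher over all genes moved with it, to 4191 without DSS 1, 983 without DSS 2, 1243 without DSS 3, 1332 without water 1, 1524 without water 3 and 218 after quantile normalization, where 14 were lower. The median of the 35, 0.51, was 0.98 without DSS 1 and 0.26 without DSS 3, with 19 of the 35 above 0 in the latter.

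In Parp1-/- mice DSS left the proteasome genes without a call, and most lay somewhat below 0. Of the 35 genes 30 were below 0, with a median of -0.39 and a range of -0.89 to 0.21, against a median of 0.01 over all genes. Of all 21314 genes 10002 were below 0. Limma called 0 of the 35 in either direction and 0.00938% of all genes, and 1 of the 35, Psma2, had an unadjusted p under 0.05. In 7 genes all 3 DSS arrays were below all 3 water arrays, as in 4.7% of all genes: Psma7, Psmb1, Psmb7, Psmc1, Psmc6, Psmd4 and Psmd7.

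Psma2 was at 0.01, 1.18 and 1.36 on Parp1-/- water arrays and 0.25, -0.47 and 0.09 on Parp1-/- DSS arrays, a difference of -0.89 ± 0.34 (limma p 0.0243 unadjusted). Psma6 was at -0.09, 1.12 and 1.34 in water and 0.39, -0.33 and 0.09 in DSS, a difference of -0.74 ± 0.42. In both genes water 2 and 3 were high and water 1 lay among the DSS arrays. Psmd7, a lid subunit that pairs with the deubiquitinase Psmd14, was at 0.48, 1.14 and 1.28 in water and 0.30, -0.31 and 0.31 in DSS, a difference of -0.87 ± 0.43. Psmd4, a ubiquitin receptor of the base, was at 0.50, 0.89 and 0.92 in water and 0.34, -0.03 and 0.03 in DSS, a difference of -0.66 ± 0.38. These groups did not overlap, although neither gene was called. The proteolytic subunits Psmb5, Psmb6 and Psmb7 were at -0.21 ± 0.50, -0.29 ± 0.34 and -0.46 ± 0.22.

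The genes that did not go with the majority were near 0: Psma5 at 0.11, Psmb2 at 0.03, Psmd13 at 0.05, and the chaperones Psmd9 at 0.10 and Psmd10 at 0.21. Psma8 was at -0.01 and Psmb11 at -0.05, and the chaperone Psmd5 at -0.50 ± 0.52. The 12 smooth muscle genes all lay below 0 in this comparison, with a median of -0.94, and were high on 2 of the 3 water arrays and 1 of the 3 DSS arrays. Their part in these values was not tested. With the smooth muscle mean of each array as a covariate the median of the 35 genes was -0.26, and without those 3 arrays, a fit that leaves 1 water array, it was -0.13. With array weights 11 of the 35 were called lower, while of all 21314 genes 988 were called lower and 649 higher, against 0 and 2 without them.

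**Figure D3:**
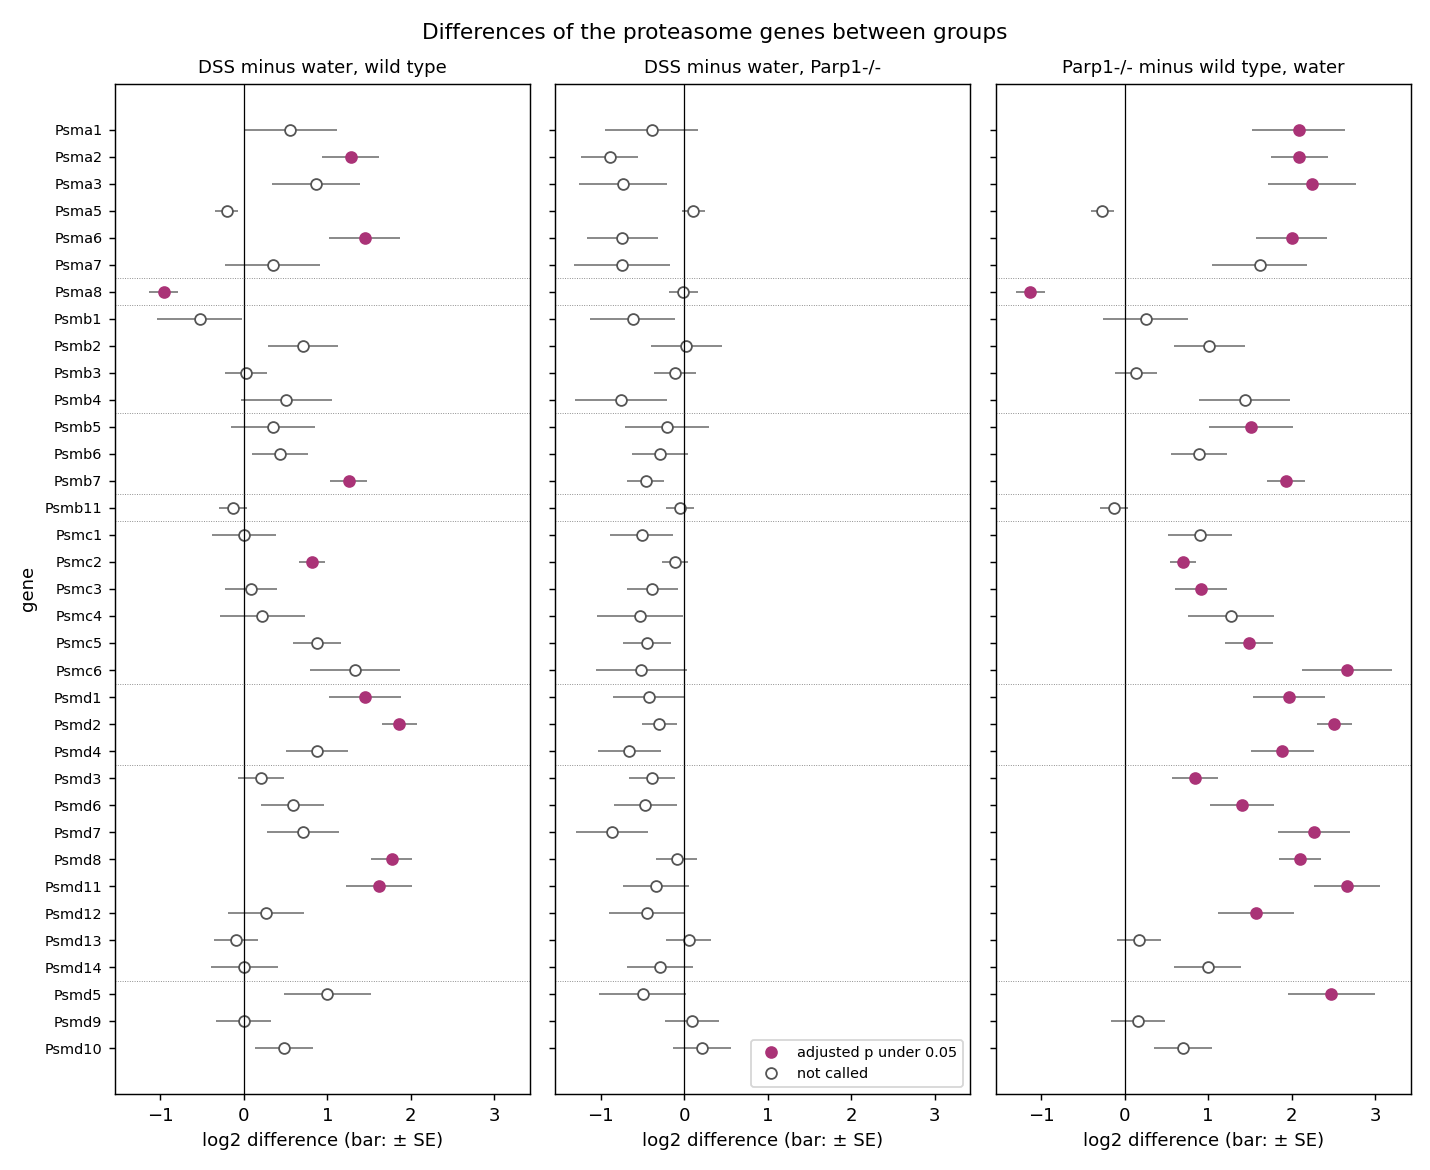
Log2 difference ± SE of each proteasome gene for DSS minus water in wild-type mice, DSS minus water in Parp1-/- mice and Parp1-/- minus wild type in water, 3 mice per group; filled points have a limma adjusted p under 0.05. Filled points lie to the right of 0 in the first and last panels except Psma8, and the middle panel has none.

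In water, 20 of the 35 genes were higher in Parp1-/- than in wild-type mice and 1, Psma8, was lower. The regulatory particle had 14 of 20 called higher and all 20 above 0, with a median of 1.45, and the core 6 of 15 called higher and 12 above 0, with a median of 1.44. Over all genes 17.9% were called higher and 13.7% lower, and the median was -0.07, or 0.04 with array medians set equal, which moved the median of the 35 genes from 1.44 to 1.55. In 28 of the 35 genes all 3 Parp1-/- arrays were above all 3 wild-type arrays, as in 26.2% of all genes, and in 2, Psma5 and Psma8, below them, as in 29.2%. The probe sets of Psma5 disagreed on this: in 1 of them wild-type water 3 was at -0.05 and Parp1-/- water 2 at 0.14. This comparison and that of DSS in wild-type mice share the 3 wild-type water arrays, so their values are not independent.

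Psmd11 and Psmc6 had the largest differences, at 2.66 ± 0.40 and 2.66 ± 0.54 (limma adjusted p 0.00113 and 0.00554). Psmd11 was at 0.31, 0.52 and 0.60 on Parp1-/- water arrays, above every wild-type water array, the nearest of which was at -1.496. Psmc6, an ATPase of the base, was at -2.60, -2.11 and -1.48 on wild-type water arrays and 0.44, 0.53 and 0.82 on Parp1-/- water arrays. Psmd2, given above, differed by 2.51 ± 0.21 (5.38e-05), and the chaperone Psmd5 by 2.48 ± 0.52 (0.00632), at -2.59, -1.26 and -1.63 in wild-type and 0.40, 0.82 and 0.74 on Parp1-/- water arrays. In all of them the 2 groups were more than 1 unit apart at their nearest arrays. All 3 non-ATPase base subunits, 6 of 8 lid subunits and 4 of 6 ATPases were called higher. The ATPase Psmc2 is among them, but its second probe set went the other way. That probe set was at 0.34, 0.38 and -0.06 on wild-type water arrays and 0.03, -0.41 and -0.18 on Parp1-/- water arrays. Psmd13 of the lid, at 0.17 ± 0.27, and the deubiquitinase Psmd14, at 0.99 ± 0.40, were the lid genes not called.

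Among core genes, the alpha ring subunits Psma3, Psma1, Psma2 and Psma6 were higher by 2.24 ± 0.53, 2.09 ± 0.56, 2.09 ± 0.34 and 2.0 ± 0.42, with limma adjusted p of 0.0108, 0.0183, 0.00192 and 0.00675. Psma3 was at -0.93, -2.28 and -0.65 on wild-type water arrays and 0.24, 1.13 and 1.502 on Parp1-/- water arrays. Both groups were again separate, with Parp1-/- water 1 the lowest of its group, as in Psma1, Psma2 and Psma6. Psmb7 was higher by 1.93 ± 0.22 (0.000263) and Psmb5 by 1.52 ± 0.50 (0.0399), while Psmb6, at 0.89 ± 0.34, had an adjusted p of 0.0613 and was not called. Psmb5 lost its call after quantile normalization and on leaving out any 1 of the wild-type water arrays, while Psmb7 kept its call in each of these fits. Of the 4 structural beta subunits none was called, from Psmb3 at 0.14 ± 0.25 to Psmb4 at 1.44 ± 0.55. Psma8 was lower, with a difference of -1.13 ± 0.17 (0.00135), and Psma5 and Psmb11 were at -0.27 ± 0.14 and -0.13 ± 0.17. The chaperones Psmd9 and Psmd10, at 0.16 ± 0.33 and 0.70 ± 0.34, were not called.

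In the same comparison 12 of 16 housekeeping genes were called higher, with a median of 1.55, and 10 of 12 colon epithelium genes, with a median of 1.68. Less the housekeeping mean, the 35 genes averaged 0.49 ± 0.14 (SD, n = 3) on wild-type water and 0.26 ± 0.20 on Parp1-/- water arrays. The core averaged 0.75 and 0.27 by this measure, and the regulatory particle 0.29 and 0.25. No fit with the housekeeping mean as a covariate was run for this comparison or for the difference of the responses. Smooth muscle genes had a median of 2.57 with 0 of 12 called. Without the 3 arrays of high smooth muscle genes, a fit that leaves Parp1-/- water 1 alone and takes it to vary like the other groups, the median of the 35 was 0.94 and 1 gene, Psmd2, was called higher, while the calls over all genes fell from 3813 to 146 higher and from 2912 to 1 lower. Quantile normalization left 11 called higher and 1 lower, with 1773 and 446 over all genes against 3813 and 2912.

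**Figure D4:**
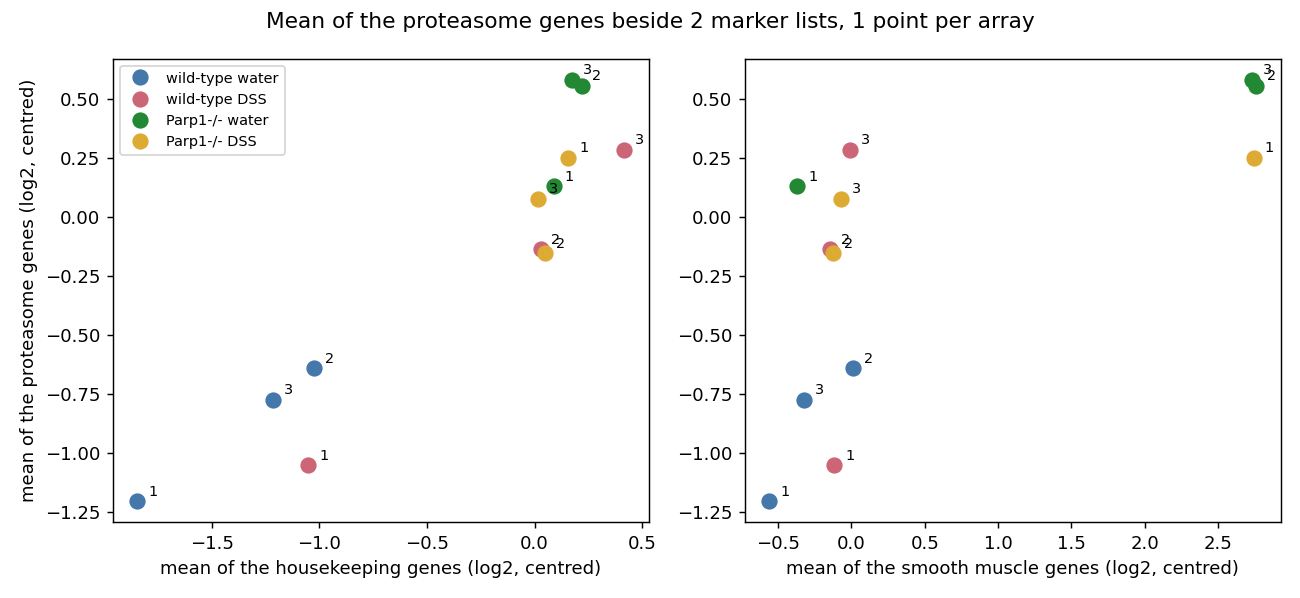
Mean log2 value of the 35 proteasome genes (vertical axis) against the mean of 16 housekeeping genes (left) and of 12 smooth muscle genes (right), 1 point per array, coloured by group and numbered by mouse. On the left the 4 low arrays lie apart from the other 8 on both axes. On the right Parp1-/- water 2 and 3 and Parp1-/- DSS 1 lie apart on the horizontal axis. Parp1-/- water 2 and 3, at 0.55 and 0.58, are also the highest on the vertical axis, and Parp1-/- DSS 1, at 0.25, is not.

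After DSS the genotypes did not differ by the test in any proteasome gene. Limma called 0 of the 35 and 0% of all genes, none of the 35 and 593 of all genes had an unadjusted p under 0.05, and the groups of none were separate, as they were in 6.55% of all genes. The median was 0.33, with 29 of the 35 above 0, and in the regulatory particle 19 of 20. The genes of smallest p were Psma1 at 1.14 ± 0.56 and Psmb5 at 0.96 ± 0.50 in the core, and Psmd5 at 0.98 ± 0.52 and Psmd12, a lid subunit, at 0.86 ± 0.45. Psma1 was at -2.69, -0.74 and 0.33 on wild-type DSS arrays and 0.32, -0.02 and 0.02 on Parp1-/- DSS arrays. The low array was wild-type DSS 1, and without it the median of the 35 was -0.04, while without wild-type DSS 3 it was 0.64. Psmb6, Psmb7, Psma8 and Psmb11 were at 0.17, 0.21, -0.18 and -0.05, and the chaperones Psmd9 and Psmd10 at 0.26 and 0.43. Besides Psma8 and Psmb11, those below 0 were Psma6, Psma2 and Psmb3 of the core, at -0.19, -0.08 and -0.01, and Psmc2 of the regulatory particle, at -0.23. The probe sets of Psmc2 disagreed here too, at -0.65 and 1.39 in wild-type DSS 1 and 0.30 and -0.44 in Parp1-/- DSS 1.

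The response to DSS was lower in Parp1-/- than in wild-type mice by the test of the difference itself in 4 genes, 2 of the core and 2 of the regulatory particle. Over all genes 2.33% were called lower and 0.216% higher. Psma2 differed by -2.17 ± 0.49 (limma adjusted p 0.0405), as a rise of 1.28 in wild-type stood against -0.89 in Parp1-/- mice. Psmd2 differed by -2.16 ± 0.30 (0.0046), Psmd8 by -1.86 ± 0.35 (0.0199) and Psmb7 by -1.72 ± 0.32 (0.0178). In all 4 genes the lowest 3 of the 12 arrays were those of wild-type water, and in Psmd8 the 9 other arrays ranged from -0.89 to 0.12. The median of the 35 genes was -0.92, with 30 below 0, against 0.05 over all genes. Without wild-type DSS 3 it was -0.46, with 8 of the 35 above 0. Over the 16 housekeeping genes the median was -1.42 with every array, and 1 was called lower. Over the 12 colon epithelium genes it was -1.75, and 7 were called lower. The median of the proteasome genes was thus nearer 0 than both.

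Psma6 had the largest size, -2.19 ± 0.60, and was not called (adjusted p 0.088). Psmb5 and Psmb6 were at -0.56 ± 0.71 and -0.73 ± 0.47, and Psmd5, Psmd9 and Psmd10 at -1.501, 0.10 and -0.27. Those above 0 were Psma8, at 0.94 ± 0.25 with an adjusted p of 0.0731, Psma5 at 0.31, Psmb11 at 0.08, Psmd13 at 0.14, and Psmd9. Quantile normalization left 0 genes called, of the 35 and of all. The count of genes called lower was 16 without wild-type DSS 1 and 1 without wild-type DSS 2, Parp1-/- water 2, Parp1-/- water 3, Parp1-/- DSS 2 or Parp1-/- DSS 3, and the 1 kept was Psmd2 in each of these 5. Over all genes 2508 were called lower without wild-type DSS 1 and 174 to 232 in those 5 fits, against 496 with every array.

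Other genes of the pathway were read from lists made by function. Of the 3 immunoproteasome genes none was called in any comparison. Psmb8, whose product takes the place of Psmb5, was at 0.03, -0.08 and -0.23 on wild-type water arrays and -0.54, 1.54 and 0.87 on wild-type DSS arrays, a difference of 0.71 ± 0.41, and Psmb10 was at 0.87 ± 0.50. In Parp1-/- mice Psmb8 differed by 0.59 ± 0.41 after DSS, where its constitutive counterpart Psmb5 was at -0.21. All 3 were above 0 after DSS in both genotypes, with medians of 0.71 and 0.27. Of the activators, which open the gate of the core, Psme2 went against the subunits: it was at 1.60, 0.76 and 1.22 on wild-type water arrays and -1.37, -0.89 and -0.51 on wild-type DSS arrays, and fell by 2.12 ± 0.25 on the log2 scale (limma adjusted p 0.000414). In Parp1-/- mice Psme2 lay between -0.34 and 0.04 in all 6 arrays, and the responses differed by 2.06 ± 0.35 (0.0133). Psme4 was higher in Parp1-/- than wild-type water by 1.61 ± 0.42.

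Among the chaperones of core assembly, Psmg1 rose by 1.30 ± 0.22 with DSS in wild-type mice and Psmg4 fell, at -0.79 ± 0.17. Pomp, which matures the core, was higher by 1.88 ± 0.60 in Parp1-/- than wild-type water, and Psmg4 lower, at -0.99 ± 0.17. Of 11 measured genes whose products bind the proteasome, 7 rose with DSS in wild-type mice and 9 were higher on Parp1-/- water arrays. Of all genes 8.89% were called higher in the first of these comparisons and 17.9% in the second. Of 16 housekeeping genes, 9 and 12 were called higher. Among the 11, the deubiquitinase Usp14 had the largest difference in both comparisons, at 1.90 ± 0.31 and 2.69 ± 0.31. It was followed on wild-type DSS arrays by Zfand5 at 1.86 ± 0.38 and the shuttle protein Ubqln1 at 1.56 ± 0.26, and on Parp1-/- water arrays by Zfand5 at 2.44 ± 0.38 and Ecpas at 2.38 ± 0.32. In this group 2 genes, Usp14 and the shuttle protein Rad23b, had a lower response in Parp1-/- mice, at -2.34 ± 0.44 and -1.54 ± 0.35. Of 6 measured genes of ubiquitin supply, 2 rose in wild-type mice, the conjugating enzymes Ube2d1 by 2.15 ± 0.22 and Ube2d2a by 0.94 ± 0.19, and 3 were higher on Parp1-/- water arrays.

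Among the regulators of subunit genes, Nfe2l2, which raises antioxidant genes, was at -2.23, -2.00 and -2.21 on wild-type water arrays and between -0.09 and 0.27 in the 9 other arrays. It rose by 2.18 ± 0.15 in wild-type mice (limma adjusted p 3.78e-05) and differed by 2.32 ± 0.15 between genotypes in water. Nfe2l1 was at -1.30, -1.30 and -1.74 on wild-type water arrays, -0.77, -0.56 and 0.12 on wild-type DSS arrays, and -0.07 to 0.30 in the 6 Parp1-/- arrays, and rose by 1.04 ± 0.23 (0.0135). Ngly1, the deglycosylase that Nfe2l1 needs to become active, rose by 2.24 ± 0.27. In these 3 genes wild-type DSS 1 lay above the wild-type water arrays, unlike in most subunit genes. In total 3 of 8 measured regulators were called higher with DSS in wild-type mice and 4 on Parp1-/- water arrays, the fourth being the unfoldase Vcp at 1.51 ± 0.24. Over all genes the shares called higher were 8.89% and 17.9%. None of the genes of these lists was called in Parp1-/- mice after DSS or between genotypes after DSS.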

How the data were processed

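RNA of whole colon was labelled with biotin for Affymetrix arrays, per the labels' protocols. The authors deposited log2 values of 31693 probe sets on 12 arrays; log base 2 and direction were assumed, and their software and normalization were not given in the sources used here. Values ran from -4.83 to 5.47, with the median of each probe set at 0, so scale and direction stay unstated while the centring was seen in the values. The platform annotation gave 22586 probe sets 1 symbol. Probe sets were averaged per gene, and limma 3.58.1 in R 4.3.3 (lmFit, eBayes) was fitted to 4 group means over all 12 arrays, with Benjamini-Hochberg adjustment over 21314 genes and calls at an adjusted p under 0.05. On simulated data the test of DSS in wild-type mice called 47 of 100 genes changed by log2 1, 80 of 100 changed by 2, and 9 unchanged ones. The simulated noise was independent between genes, with the same SD in all groups and no shift of the 4 low arrays. These counts therefore do not give the error rate of the calls in the real data. Named were, in each comparison, direction and particle, up to 4 called genes of largest difference or the 2 of smallest p, the proteolytic, tissue-restricted and chaperone genes, and genes of opposing sign; related lists gave up to 3. Other uncalled genes of a class were named after their values were seen. The members and the gene lists, receptor and housekeeping genes included, were chosen with earlier results of these data known. Replicate numbers only name mice. Counts and promoters came from Python 3.11.15 (pandas 2.3.3); matplotlib 3.10.9 drew the figures.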

Additional observations from a re-analysis of the deposited data

Results flagged for a closer look

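Tests of the difference between the DSS responses, Parp1-/- minus wild type, called 4 of the 35 proteasome genes, each with a lower response in Parp1-/- mice. They also called lower 2.33% of all genes and 7 of 12 colon epithelium genes. The difference was -2.17 ± 0.49 (SE) for Psma2, -2.16 ± 0.30 for Psmd2, -1.86 ± 0.35 for Psmd8 and -1.72 ± 0.32 for Psmb7, with limma adjusted p of 0.0405, 0.0046, 0.0199 and 0.0178. In each of these genes the 3 wild-type water arrays were the lowest of the 12, and the housekeeping mean of those arrays was -1.85, -1.02 and -1.21. The part of that difference between arrays in the 4 results was not tested.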

How the results depend on the processing

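For DSS in wild-type mice, the 8 proteasome genes called higher became 2 after quantile normalization and 2 with only the arrays compared. They became 13 with array weights, 4 at an adjusted p under 0.01 and 3 with the housekeeping mean as a covariate. On leaving out 1 array they became 4 to 17. Over all genes, 1894 were called higher, and in the same order 218, 621, 3338, 884, 853 and 983 to 4191. The 1 proteasome gene called lower became 0 after quantile normalization, 0 with only the arrays compared and 8 with the housekeeping covariate. It became 1 to 2 on leaving out 1 array. Over all genes, 887 were called lower, and in the same order 14, 20, 1397 and 228 to 2674. With the covariate the median of the proteasome genes turned to -0.50. In Parp1-/- mice array weights called 11 lower after DSS in place of 0, and 988 of all genes in place of 0. In water, the 20 called higher became 11 after quantile normalization, 13 at an adjusted p under 0.01 and 1 without the 3 arrays of high smooth muscle genes, an alternative chosen after seeing the data, where the 1 lower became 0. Over all genes in water, 3813 were called higher, 1773 after quantile normalization and 1843 at an adjusted p under 0.01. Between genotypes after DSS the median of the proteasome genes, 0.33, turned to -0.0391 when the 4 low arrays were left out. It ran from -0.0391 to 0.642 on leaving out 1 array, the lowest being that without wild-type DSS 1. For the difference of the responses, the 4 proteasome genes called lower became 0 after quantile normalization and 1 with trend and robust options. They became 19 with array weights, 1 at an adjusted p under 0.01 and 1 to 16 on leaving out 1 array. Over all genes, 496 were called lower, and in the same order 0, 128, 3136, 134 and 174 to 2508. On leaving out 1 array, 0 to 1 proteasome genes were called higher, and 1 with array weights. Over all genes, 46 were called higher, 3 to 670 on leaving out 1 array and 2327 with array weights. Quantile normalization moved the core and regulatory particle means of wild-type water to -0.27 and -0.54, and their difference to 0.27; it was 0.19 with medians over genes and 0.29 without Psma8, Psmb11 and the 3 chaperones, and -0.0812 with medians in Parp1-/- water. The cause of these changes was not tested. No paired analysis was possible because the labels give no replicate numbers that pair mice. Signal over background is unknown.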

Other observations

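Other large complexes of the cell had medians above 0 in wild-type mice after DSS, as the proteasome genes had. All 8 subunits of the CCT chaperonin, which folds actin and tubulin, were above 0 for DSS in wild-type mice, with a median of 0.88 against 0.51 for the proteasome genes, and 2 rose: Cct2 by 2.64 ± 0.33 and Cct4 by 2.63 ± 0.28 (SE, n = 3 mice per group). In water 7 of the 8 were higher in Parp1-/- mice, with Cct2 at 3.21 ± 0.33. Cct2 was at -2.78, -2.81 and -3.27 on wild-type water arrays and between -1.23 and 0.35 in the 9 other arrays. Of 12 measured subunits of the translation factor eIF3, 3 rose with DSS in wild-type mice, led by Eif3c at 1.84 ± 0.28, and 7 were higher on Parp1-/- water arrays, led by Eif3b at 3.07 ± 0.53. Of the 9 subunits of the COP9 signalosome, a complex built like the proteasome lid, 2 rose, Cops4 by 1.45 ± 0.24 and Cops2 by 1.14 ± 0.25, and 4 were higher on Parp1-/- water arrays. Of all genes 8.89% were called higher with DSS in wild-type mice and 17.9% on Parp1-/- water arrays, and of 16 housekeeping genes 9 and 12. For DSS in Parp1-/- mice, all 8 CCT, 11 of 12 eIF3 and 6 of 9 COP9 subunits were below 0. Their medians were -0.41, -0.32 and -0.16, against -0.39 for the proteasome genes, and none was called.

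Neutrophil and monocyte genes had an order of arrays of their own. Their mean was -0.50, -0.35 and -0.41 on wild-type water arrays, 0.37, 1.48 and 0.86 on wild-type DSS arrays, -0.40, -0.60 and -0.74 on Parp1-/- water arrays, and 0.26, 0.94 and 0.34 on Parp1-/- DSS arrays, so the DSS arrays of both genotypes were above all water arrays. The mean of the 35 proteasome genes on Parp1-/- DSS arrays, at -0.16 to 0.25, overlapped Parp1-/- water, at 0.13 to 0.58.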
